A study of Mus musculus with 6 samples.

Results

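The genes described here are developmental transcription factors outside the Hox clusters, measured in cultured mouse aortic smooth muscle cells with and without FHL2. They were picked by gene symbol, a choice made with earlier results of these data known. The symbols are those of the numbered Sox, Tbx, Gata, Meis, Meox, Pbx, Irx, Lhx and Six-family genes, the Fox genes (letter and number), Twist1, Twist2, Hand1, Hand2, Prrx1, Prrx2, Tcf21 and Tcf15, without Sox9. The platform annotation gave 223 probes of 114 such genes among 45281 probes. Probes had to be detected, with a deposited detection p-value under 0.05, on 3 or more of the 6 arrays. Such a p-value sets a probe against the negative control beads of its array. This left 66 probes of 45 genes among 15527 probes and 9051 genes kept in all.

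FHL2 is a LIM-only protein, built of protein-binding zinc finger domains, that acts as a cofactor of transcription factors and signalling proteins. The wild-type group was aortic smooth muscle cells of C57Bl/6 mice, and the knockout group was the same cell type from FHL2-knockout mice of the same strain. Each genotype had 3 culture batches, each pooled from the aortas of 3 mice, so that 9 mice stood behind each genotype. All cells were grown to confluency, kept in serum-free medium for 48 h and measured on Illumina expression beadchips, with 1 array per batch. How the knockout allele was made, and the age and sex of the mice, are not given in the sources used here. The p-values measure the spread between such pooled batches.

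Transcription factors of these families set the identity of tissues in the embryo. Forkhead (Fox), T-box (Tbx) and GATA factors pattern mesoderm and endoderm, SOX factors act in neural crest, cartilage and endothelium, and the homeodomain proteins Meis and Pbx bind DNA together with Hox proteins. Smooth muscle of the aorta comes from several embryonic sources, among them neural crest, second heart field and somites, and adult cells keep expressing part of the factors of their origin. FHL2 itself has been reported to bind FOXO1 and FOXK1, members of the forkhead family.

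Both Fhl2 probes followed the labels. The brighter probe had normalized log2 intensities of 11.23, 11.37 and 11.51 on the wild-type arrays and 6.70, 6.65 and 7.04 on the knockout arrays, and the dimmer one was detected on 3 wild-type and 0 knockout arrays. Arrays of 1 genotype correlated at 0.985 to 0.988 over all kept probes and arrays of different genotypes at 0.934 to 0.939. Between 14844 and 16115 probes were detected per array. Of 10 smooth muscle markers with a probe, 8 were kept, of which 3 were higher in the knockout (Actg2 by 3.89, Lmod1 by 1.09 and Acta2 by 0.50 on the log2 scale) and Mylk was lower (-0.56). These shares were 37.5% and 12.5%, against 14.8% higher and 16.5% lower of all genes with a kept probe. Acta2 was bright in both genotypes, with means of 14.61 and 15.12. The summed unlogged level of the list was 34430 to 42710 on the wild-type arrays and 60420 to 63260 on the knockout arrays. Acta2, the brightest gene of the list, weighs most in this sum. Myh11, a marker of contractile smooth muscle, was detected on 1 wild-type and 2 knockout arrays, and Cnn1 and Myocd had no kept probe.

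Other cell type and sex-linked markers also separated the genotypes. Of 14 endothelial markers with a probe, 9 were kept, and 6 of these were lower in the knockout (66.7%, against 16.5% of all genes). The summed unlogged level of the list was 2078 to 2631 on the wild-type arrays and 623.5 to 705.8 on the knockout arrays, and Emcn, Egfl7, Esam, Icam2, Pecam1 and Cdh5 were detected on 3 wild-type and 0 knockout arrays. The other 3 kept markers, Eng (0.69), Kdr (0.30) and Flt1 (-0.25), were not called. All knockout values of Eng lay above its wild-type values. Of 12 mesothelial and epithelial markers with a probe, 6 were kept and all 6 were higher in the knockout, against 14.8% of all genes. Their sum was 246.8 to 282.1 on the wild-type arrays and 3502 to 3729 on the knockout arrays. Upk1b, Msln, Bnc1 and Krt7 were detected on 0 wild-type arrays. Like the 6 endothelial markers detected on 0 knockout arrays, these 4 were kept through 1 genotype alone, so that the filter fixed their direction. Of 4 sex-linked genes, Xist was detected on 3 wild-type and 0 knockout arrays, while Eif2s3y and Kdm5d, both on the Y chromosome, rose by 1.40 and 0.79 on the log2 scale. Uty, also on the Y chromosome, differed by 0.28 (adjusted p = 0.427) and was not called. These shares were 50% higher and 25% lower, against 14.8% and 16.5% of all genes. The part of these smooth muscle, other cell type and sex differences in the results below was not tested. In RNA from whole cultures, fewer cells of a type and less RNA per cell cannot be told apart.

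Of the 45 genes, each taken at its brightest kept probe, 7 were higher and 12 lower in the knockout at an adjusted p under 0.05 (limma, Benjamini-Hochberg over all kept probes). The share called was 42.2%, against 31.3% of all 9051 genes with a kept probe. The members called lower made up 26.7%, against 16.5% of all genes, and those called higher 15.6%, against 14.8%. Whether these shares differ from those of other genes was not tested. A change of at least 2-fold was called for 10 of the 45 genes (22.2%), against 10.6% of all genes: 3 were higher (background 4.7%) and 7 lower (background 5.88%). These counts use fitted differences and include 4 genes that were kept through 1 genotype alone, Foxa1, Pbx4, Foxp2 and Meox2. The 3 wild-type and 3 knockout values did not overlap for 27 genes (60%), against 47.8% of all genes. The median log2 difference was -0.015 over the 45 genes and -0.006 over all genes, while the median absolute difference was 0.517 and 0.296.

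The filter admits a gene that is seen in 1 genotype only, and such a gene had to differ. Among the 45 genes, 3 were kept through the wild-type arrays alone and 3 through the knockout arrays alone. The other 39 were detected in both genotypes. Of the 30 genes detected on all 6 arrays, 3 were higher and 9 lower (40%), against 31.1% of the 7299 genes of that kind. At 2-fold, 0 of these 30 were higher and 5 lower (16.7%), against 8.51% of those genes. By probe, 8 of 66 were higher and 17 lower (37.9%), against 29.6% of all kept probes. The groups did not overlap for 36 of them (54.5%), against 44.4% of all kept probes.

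**Figure D1:**
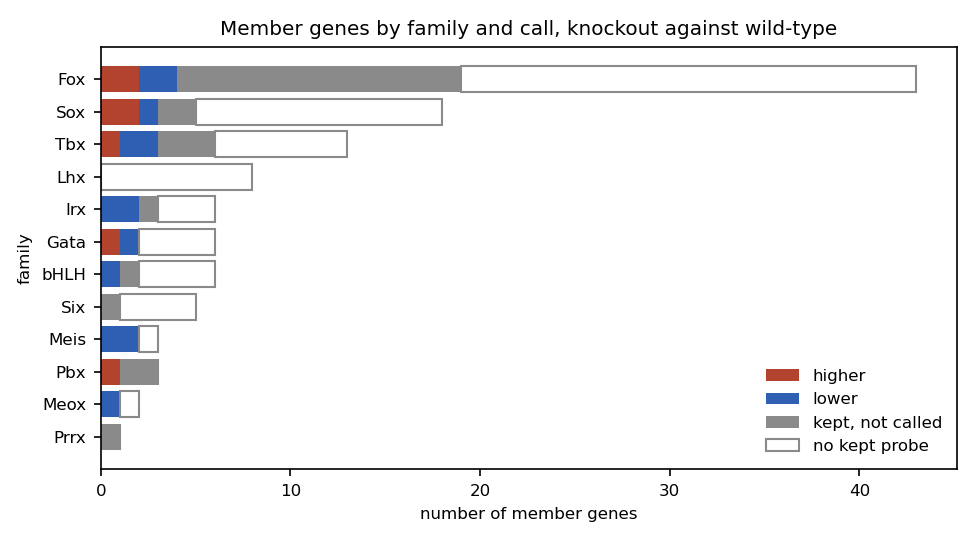
Number of member genes per family (horizontal bars), split into genes called higher (red), called lower (blue), kept but not called (grey) and without a kept probe (open). The Fox family was the largest, with 43 genes, 19 of them kept, and none of the 8 Lhx genes had a kept probe.

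By family, the calls went in both directions among Fox genes (2 higher and 2 lower of 19 kept), Sox genes (2 and 1 of 5), T-box genes (1 and 2 of 6) and GATA genes (1 and 1 of 2). The calls were lower for 2 of 3 Iroquois genes, 2 of 2 Meis genes, the kept Meox gene and 1 of 2 basic helix-loop-helix genes. Of 3 Pbx genes, 1 was higher. Six5 and Prrx1, the kept genes of their families, were not called. Of the kept Fox genes 21.1% were called, 10.5% in each direction. Of all genes with a kept probe 31.3% were called, 14.8% higher and 16.5% lower. Each other family had at most 6 kept genes, so that its share rests on few genes.

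**Figure D2:**
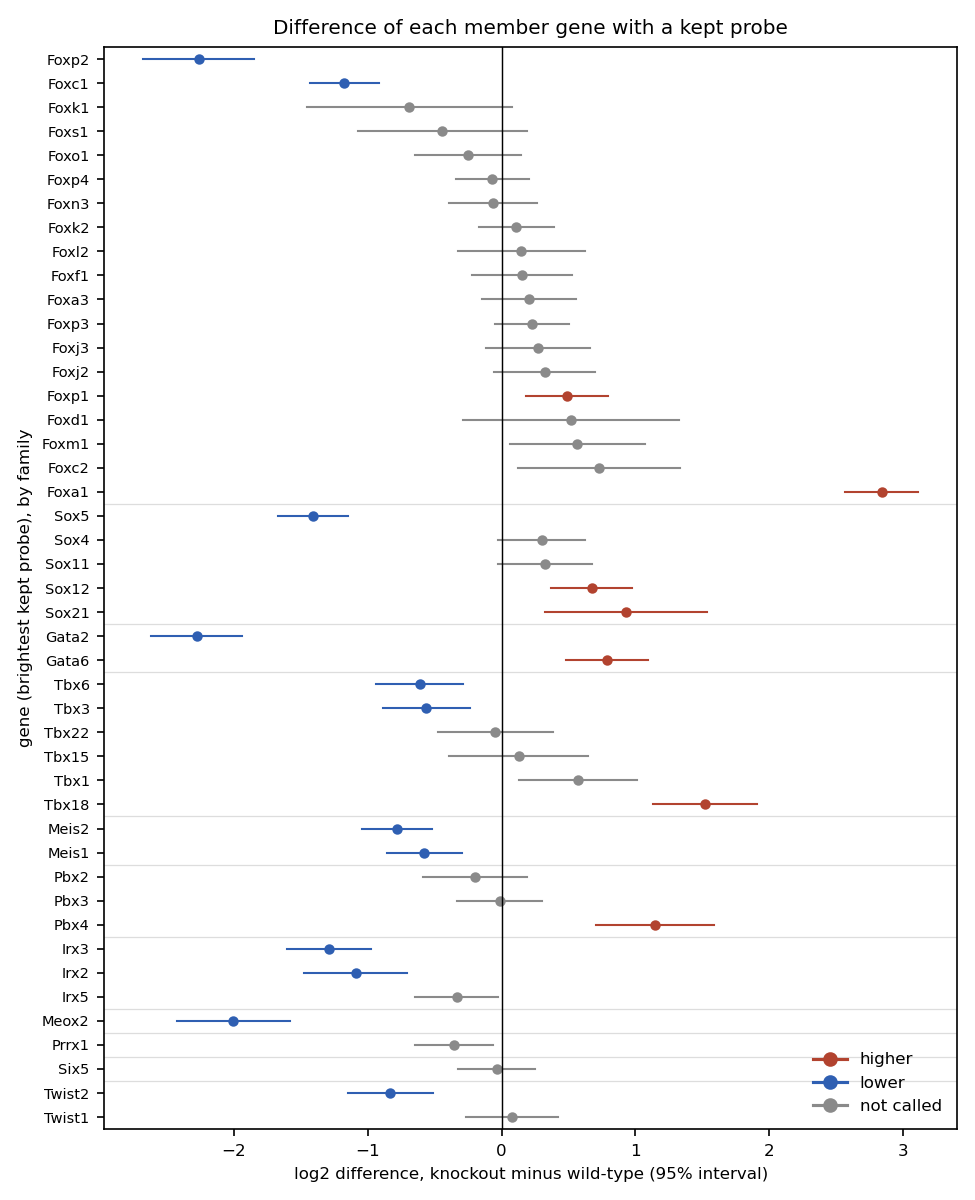
Log2 difference, knockout minus wild-type, of each of the 45 genes at its brightest kept probe (points) with its 95% interval (lines), grouped by family. Red genes were called higher, blue genes lower and grey genes were not called, with Foxa1 at 2.84 and Gata2 at -2.28 as the ends of the range.

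The 4 genes whose start regions are shown next are the pair with the highest and the pair with the lowest differences among those that have an entry in the RefSeq promoter table (build GRCm38.p6). Foxp2 has no entry. Each sequence runs 5′ to 3′ on the gene's own strand, from 250 bases before to 50 bases after the annotated start. Capitals mark the forkhead motif TGTTTAC, the MEIS motif TGACAG, the T-box half-site GGTGTGA, the TATA box TATAAA and the CCAAT box, each on either strand. The Foxa1 window (chr12:57546062-57546361, minus strand) holds 1 forkhead and 1 CCAAT match, and the Tbx18 window (chr9:87731211-87731510, minus strand) 1 MEIS and 1 CCAAT match. Gata2 has 2 windows, of which chr6:88193641-88193940 (plus strand) holds a T-box half-site and chr6:88198414-88198713 (plus strand) a CCAAT match in each direction. The Meox2 window (chr12:37108290-37108589, plus strand) holds 1 TATA match on the opposite strand.
Foxa1: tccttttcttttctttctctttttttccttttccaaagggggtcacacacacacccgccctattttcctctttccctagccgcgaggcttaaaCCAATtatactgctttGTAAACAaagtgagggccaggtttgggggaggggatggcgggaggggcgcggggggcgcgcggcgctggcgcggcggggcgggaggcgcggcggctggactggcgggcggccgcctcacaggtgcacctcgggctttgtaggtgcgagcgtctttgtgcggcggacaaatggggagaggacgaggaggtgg
Tbx18: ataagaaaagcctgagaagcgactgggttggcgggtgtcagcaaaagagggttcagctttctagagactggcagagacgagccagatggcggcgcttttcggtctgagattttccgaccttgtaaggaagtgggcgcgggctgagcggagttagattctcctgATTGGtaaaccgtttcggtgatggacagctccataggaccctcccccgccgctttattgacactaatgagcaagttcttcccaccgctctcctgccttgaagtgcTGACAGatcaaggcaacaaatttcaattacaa
Gata2 upstream window: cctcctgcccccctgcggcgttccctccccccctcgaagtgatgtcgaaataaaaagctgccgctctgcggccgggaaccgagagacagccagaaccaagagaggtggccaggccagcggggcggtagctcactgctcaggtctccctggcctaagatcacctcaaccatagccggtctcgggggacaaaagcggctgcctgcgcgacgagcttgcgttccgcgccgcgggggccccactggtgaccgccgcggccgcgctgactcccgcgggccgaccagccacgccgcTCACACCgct
Gata2 downstream window: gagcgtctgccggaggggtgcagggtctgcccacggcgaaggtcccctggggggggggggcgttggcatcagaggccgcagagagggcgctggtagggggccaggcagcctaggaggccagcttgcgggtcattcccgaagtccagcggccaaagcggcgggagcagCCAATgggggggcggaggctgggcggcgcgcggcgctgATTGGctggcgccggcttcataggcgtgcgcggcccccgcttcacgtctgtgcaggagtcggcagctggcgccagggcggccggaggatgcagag
Meox2: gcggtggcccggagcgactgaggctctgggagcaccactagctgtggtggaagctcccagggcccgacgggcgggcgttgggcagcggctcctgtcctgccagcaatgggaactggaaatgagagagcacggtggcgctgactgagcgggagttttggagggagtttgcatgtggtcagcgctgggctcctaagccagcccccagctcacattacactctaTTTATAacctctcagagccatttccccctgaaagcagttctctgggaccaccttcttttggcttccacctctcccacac

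Such matches also occur in the promoters of other genes. The forkhead motif is in 3.65% of all 32851 promoter windows of the table, the MEIS motif in 19.2%, the T-box half-site in 3.98%, the TATA box in 13.6% and the CCAAT box in 37.4%. Windows of kept members, 41 for 34 genes, held them in 4.88%, 22.0%, 2.44%, 14.6% and 48.8%. Their median GC content was 60.7%, against 52.7% for all windows, with a median of 19 against 7 CpG pairs. The 99 windows of all matched members, kept or not, had a median GC content of 61.3% and 17 CpG pairs. A match describes the letters of the window and shows no binding.

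Foxa1, a pioneer factor of the endoderm that opens chromatin in epithelial tissues, had the largest fitted increase among the members. It measured 4.76, 4.79 and 4.92 on the wild-type arrays and 7.74, 7.58 and 7.67 on the knockout arrays. It was detected on 0 of 3 wild-type and on all 3 knockout arrays, so that the groups were far apart and the fold is a bound. The difference was 2.84 ± 0.12 (SE) on the log2 scale (adjusted p = 2.61e-06), at least 5.35-fold. That bound sets the knockout mean against the lowest level at which a probe counts as detected, wherever a probe was missed on all arrays of a genotype. Its relative Foxa2 was detected on 0 wild-type and 2 knockout arrays and was not kept, and Foxa3, a factor of liver, differed by 0.21 (95% interval -0.14 to 0.56) and was not called. The mesothelial and epithelial markers named above were higher on the same arrays.

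The FoxP subfamily, repressors with a zinc finger beside the forkhead domain, included calls in opposite directions. Foxp2, which acts in lung and brain development, measured 7.56, 6.95 and 7.07 on the wild-type arrays and 4.81, 5.10 and 4.87 on the knockout arrays. It was not detected on any knockout array, and it fell at least 3.81-fold (log2 difference -2.26 ± 0.18, adjusted p = 5.98e-05). Its other 2 kept probes were also lower, by at least 2.60-fold and at least 1.85-fold. Foxp1, a partner of Foxp2 with roles in heart and lung, measured 7.16, 7.35 and 7.04 in the wild-type and 7.79, 7.68 and 7.56 in the knockout. The groups did not overlap, and the difference of 0.49 ± 0.13 passed the threshold (adjusted p = 0.0265), but not without knockout replicate 1, knockout replicate 2, wild-type replicate 1 or wild-type replicate 3, with adjusted p between 0.0127 and 0.616 over all alternatives. Foxp3, the factor of regulatory T cells, and Foxp4 differed by 0.23 (95% interval -0.05 to 0.50) and -0.07 and were not called. Foxp3 had 1 kept probe, and its other probes were detected on at most 1 array of each genotype.

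Foxc1 and Foxc2, close relatives that act in the mesenchyme of the heart outflow tract, eye and vessels, had differences of opposite sign. Foxc1 measured 9.50, 9.42 and 9.53 on the wild-type arrays and 8.29, 8.28 and 8.35 on the knockout arrays. The SD was 0.05 and 0.04 within the genotypes, and Foxc1 fell 2.26-fold (-1.17 ± 0.11, adjusted p = 0.000157). Foxc2 measured 8.03, 7.69 and 6.91 in the wild-type and 8.20, 8.19 and 8.43 in the knockout. All 3 knockout values lay above the wild-type values, but the wild-type values were widely spread, and the difference of 0.73 (95% interval 0.12 to 1.33, adjusted p = 0.0719) was not called. Without wild-type replicate 1 it was 0.97 (adjusted p = 0.0276), with adjusted p between 0.00741 and 0.257 over all alternatives. Whether the differences of Foxc1 and Foxc2 differ from each other was not tested.

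The 2 forkhead proteins reported to bind FHL2 were not called. Foxo1, which promotes stress resistance and metabolic genes and is held out of the nucleus by insulin signalling, measured 6.62, 6.92 and 6.95 in the wild-type and 6.64, 6.28 and 6.82 in the knockout. The groups overlapped, and the interval of the difference ran from -0.65 to 0.15. Foxk1, a regulator of muscle progenitors in mice, measured 6.23, 6.39 and 6.52 in the wild-type and 6.52, 5.01 and 5.55 in the knockout. Knockout replicate 1 was as high as the wild-type arrays and the other two were lower, giving -0.69 (95% interval -1.46 to 0.08, adjusted p = 0.162). Without knockout replicate 1 the difference was -1.10 (adjusted p = 0.00641), within a range of adjusted p from 0.00641 to 0.419 over the alternatives. Foxk2 differed by 0.11 (95% interval -0.17 to 0.39).

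Foxm1, an activator of genes of mitosis, was dim and lay at 5.48 to 5.79 in the wild-type and 5.86 to 6.63 in the knockout. The groups did not overlap, and the difference of 0.57 (95% interval 0.06 to 1.07, adjusted p = 0.0876) was not called. The remaining kept forkhead genes had differences between -0.44 for Foxs1, a gene of pericytes, and 0.52 for Foxd1, a gene of the renal stroma. Neither was called, nor were Foxf1, a factor of visceral mesoderm (0.15), Foxj2 (0.32), Foxj3 (0.27), Foxl2, a factor of the ovary (0.15), and Foxn3 (-0.07). Foxs1 and Foxj3 passed the threshold without knockout replicate 1, at -0.74 and 0.46, where adjusted p ran from 0.0398 to 0.58 and from 0.0466 to 0.83 over the alternatives.

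Of the 6 GATA zinc finger factors, Gata2 and Gata6 were kept and moved in opposite directions. Gata2, a factor of blood stem cells and endothelium, measured 9.03, 8.91 and 9.22 on the wild-type arrays and 6.79, 6.57 and 6.96 on the knockout arrays. The groups were far apart, and Gata2 fell 4.86-fold (-2.28 ± 0.15, adjusted p = 2.15e-05), still detected on all 6 arrays. Among members detected in both genotypes, this was the largest decrease. Of the 9 kept endothelial markers, 6 were lower on the same arrays, while Eng, Kdr and Flt1 were not called.

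Gata6, which supports the contractile state of smooth muscle and acts in heart and endoderm, was bright in both genotypes. It measured 11.51, 11.19 and 11.23 in the wild-type and 12.06, 12.04 and 12.19 in the knockout. The groups did not overlap, and Gata6 rose 1.73-fold (0.79 ± 0.13, adjusted p = 0.0031). Its second kept probe was detected on 1 wild-type and 3 knockout arrays and was also called higher (adjusted p = 0.000256). The summed level of the smooth muscle markers, in which Acta2 weighs most, was higher on the same arrays. Of the 8 kept markers 3 were called higher, 1 was called lower and 4 were not called. Gata3, a factor of T cells and epithelia, was detected on 2 wild-type and 0 knockout arrays and was not kept, and Gata4 was detected on none.

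**Figure D3:**
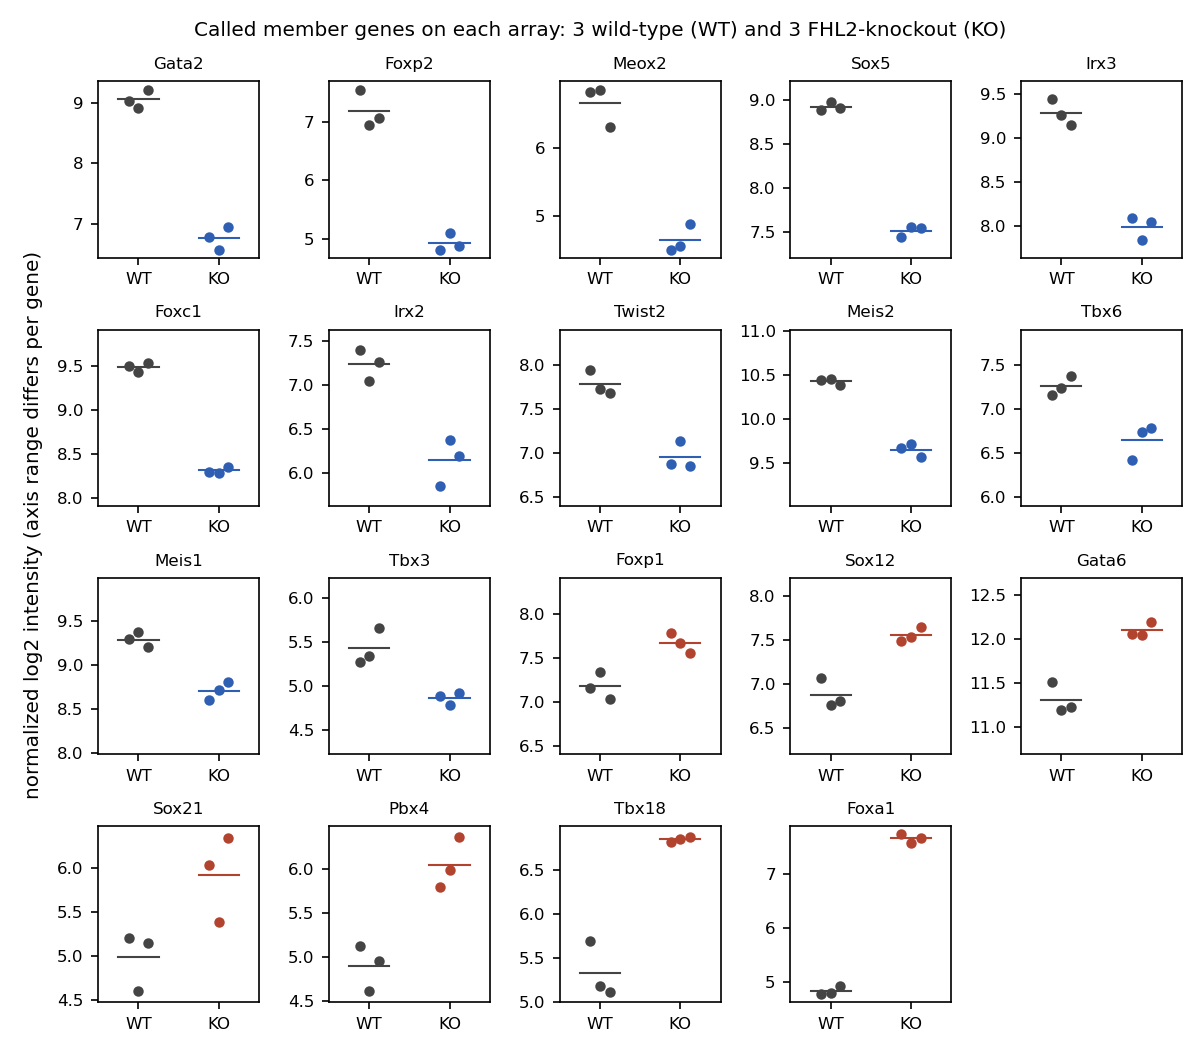
Normalized log2 intensity of the 19 called genes on each array, with wild-type points in black, knockout points in blue (lower) or red (higher) and lines at the group means. The axis range differs between panels, and the groups of 3 do not overlap in any of them.

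Of 18 SOX genes, which encode factors that bend DNA through an HMG box, 5 were kept. Sox5, a partner of Sox9 in cartilage, measured 8.89, 8.98 and 8.91 on the wild-type arrays and 7.45, 7.56 and 7.55 on the knockout arrays. The values were tight in both genotypes, and Sox5 fell 2.66-fold (-1.41 ± 0.11, adjusted p = 6.06e-05). Of its other 3 kept probes, those at -1.17 and -1.07 were also called, and the last, at -0.32 (adjusted p = 0.456), was not. Sox21, a repressor in neural progenitors, was detected on 0 wild-type arrays and rose at least 1.59-fold (0.93 ± 0.26, adjusted p = 0.03). That call was lost without knockout replicate 1, knockout replicate 3, wild-type replicate 2 or wild-type replicate 3, with adjusted p from 0.00493 to 0.134 over the alternatives. The other Sox21 probes were detected on no array of either genotype.

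Sox4, Sox11 and Sox12 form the SoxC group, which acts in neural and mesenchymal progenitors. Sox12 rose 1.6-fold at its brightest probe (0.67 ± 0.13, adjusted p = 0.00596), but its other 2 kept probes lay at -0.11 and 0.14 and were not called. Sox4 differed by 0.30 (95% interval -0.02 to 0.62) and Sox11 by 0.32 (-0.02 to 0.67), and neither was called. Sox17 and Sox18, factors of endothelium, Sox10, a factor of neural crest and glia, and Sox2 had no kept probe.

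Of 13 T-box genes, 6 were kept. Tbx18, a factor of the epicardium and of mural cells, measured 5.69, 5.18 and 5.11 in the wild-type and 6.81, 6.85 and 6.87 in the knockout. The probe was detected on 1 wild-type array, all knockout values lay above the wild-type values, and Tbx18 rose 2.87-fold (1.52 ± 0.17, adjusted p = 0.000352). Another Tbx18 probe was detected on no array of either genotype. Tbx1, a factor of the pharyngeal arches and second heart field, measured 6.81, 6.15 and 6.68 in the wild-type and 6.99, 7.05 and 7.31 in the knockout. The groups did not overlap, and the difference of 0.57 (95% interval 0.13 to 1.01, adjusted p = 0.0568) was not called. It passed without wild-type replicate 1 (adjusted p = 0.0416) and in 8 further alternatives of 17, over which adjusted p ran from 0.0256 to 0.564.

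Tbx6, a factor of the early paraxial mesoderm, fell 1.53-fold (-0.61 ± 0.14, adjusted p = 0.0134). Tbx3, a repressor in limb and cardiac conduction tissue, was dim. It was detected on 0 knockout arrays and fell at least 1.12-fold (-0.56 ± 0.14, adjusted p = 0.0182), a call that was lost without knockout replicate 2, with adjusted p from 0.0123 to 0.287 over the alternatives. Tbx15, which acts in limb mesenchyme and fat, differed by 0.13, and Tbx22, a factor of the palate, by -0.05. Tbx2, Tbx5 and Tbx20, factors of the developing heart, had no kept probe.

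The TALE homeodomain proteins Meis and Pbx form complexes with each other and with Hox proteins. Meis1 measured 9.29, 9.37 and 9.20 in the wild-type and 8.60, 8.71 and 8.81 in the knockout, and Meis2 measured 10.45, 10.46 and 10.39 against 9.67, 9.71 and 9.57. In both genes every knockout value was below every wild-type value. Meis1 fell 1.49-fold (-0.58 ± 0.12, adjusted p = 0.00854) and Meis2 1.72-fold (-0.78 ± 0.11, adjusted p = 0.00147), while a second Meis2 probe lay at -0.05 and was not called. Pbx4 measured 5.12, 4.61 and 4.96 in the wild-type and 5.80, 5.99 and 6.36 in the knockout. It was detected on 0 wild-type arrays and rose at least 1.74-fold (1.15 ± 0.19, adjusted p = 0.0028). The other Pbx4 probes were detected on no array of either genotype. Pbx2 (-0.20, 95% interval -0.58 to 0.19) and Pbx3 (-0.02, -0.34 to 0.31) were not called.

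Iroquois homeodomain factors, which pattern neural tissue, limb and the ventricles of the heart, lie in 2 clusters of 3 genes each, Irx1, Irx2 and Irx4 on chromosome 13 and Irx3, Irx5 and Irx6 on chromosome 8. Irx3 measured 9.44, 9.26 and 9.14 in the wild-type and 8.10, 7.84 and 8.04 in the knockout, and fell 2.44-fold (-1.29 ± 0.14, adjusted p = 0.00027). Its groups were more than 1 apart. Irx2 measured 7.39, 7.04 and 7.26 against 5.86, 6.38 and 6.19, and fell 2.13-fold (-1.09 ± 0.17, adjusted p = 0.00194), with its second probe at -1.20. Irx5 differed by -0.34 (95% interval -0.65 to -0.02, adjusted p = 0.1) and was not called, although its groups did not overlap. Irx1, Irx4 and Irx6 had no kept probe.

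Meox2, a homeobox gene that slows the growth of vascular smooth muscle cells, measured 6.81, 6.85 and 6.30 on the wild-type arrays and 4.50, 4.56 and 4.88 on the knockout arrays. It was detected on every wild-type and on no knockout array and fell at least 2.63-fold (-2.004 ± 0.18, adjusted p = 0.000125). Prrx1, a homeobox factor of limb and facial mesenchyme, had 4 kept probes with differences between -0.45 and -0.27, none of them called. Its brightest was at -0.35 (95% interval -0.65 to -0.06, adjusted p = 0.0706), with knockout values all below the wild-type values. Six5 differed by -0.04 (95% interval -0.32 to 0.25). Meox1 and Six2 had no kept probe.

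Among the basic helix-loop-helix factors, Twist2 measured 7.95, 7.73 and 7.68 in the wild-type and 6.88, 7.13 and 6.85 in the knockout. Its groups did not overlap and it fell 1.78-fold (-0.83 ± 0.14, adjusted p = 0.00272). Twist1 measured 7.61, 7.63 and 7.68 against 7.998, 7.64 and 7.51, where the groups overlapped and the difference was 0.08 (95% interval -0.27 to 0.42). Both act in mesenchyme and hold back differentiation, and whether their differences differ was not tested. Hand1 and Hand2, factors of the heart, Tcf15, a factor of the somites, and Tcf21, a factor of epicardium and adventitia, had no kept probe.

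**Figure D4:**
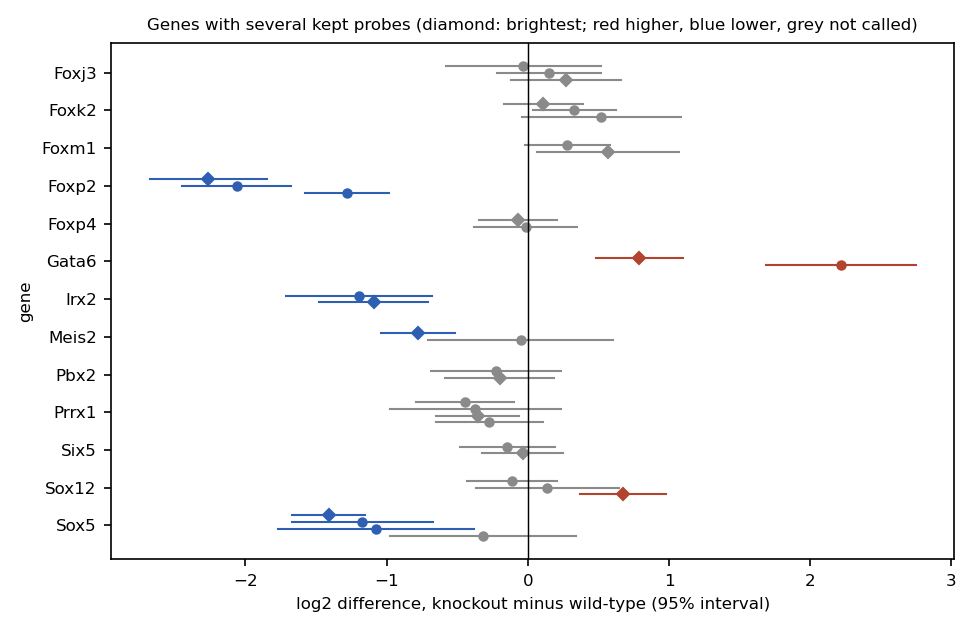
Log2 difference, knockout minus wild-type, with its 95% interval, of every kept probe of the 13 genes with several kept probes. Diamonds are the brightest probe of a gene, red and blue mark higher and lower calls, and Sox12, Sox5 and Meis2 have probes with and without a call.

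For 13 genes several probes were kept. In 11 of them all kept probes had the same sign, the exceptions being Foxj3 and Sox12. In 10 all kept probes had the same call, the exceptions being Meis2, Sox12 and Sox5. The probes of a gene can cover different transcripts, and which transcript each probe reads was not analysed here.

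For 69 member genes no probe was kept. Of the 157 member probes not kept, 115 were detected on 0 arrays, 27 on 1 and 15 on 2. Just inside the filter, the 13 probes detected on exactly 3 arrays had mean log2 intensities of 5.12 to 6.25, and just outside it, the 15 probes detected on 2 arrays had 4.93 to 5.34. Of all member probes 29.6% were kept, and of all probes 34.3%.

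On the chromosomes, the called genes were compared with their nearest annotated genes, taken as 2 on each side in the RefSeq order. Of 33 such neighbours with a kept probe outside the member list, 8 were called in the same direction as the member, 5 in the opposite direction and 20 not at all. The share called was 39.4%, against 31.3% of all genes. Gmds, an enzyme of GDP-fucose synthesis beside Foxc1, was lower (-1.49, adjusted p = 5.29e-05), as was Bcat1, an enzyme of branched-chain amino acid breakdown beside Sox5 (-1.25, adjusted p = 0.000997). Cables1 near Gata6 was higher (0.92, adjusted p = 0.00273), whereas Eif4e3 beside Foxp1 was lower (-1.40). These 4 were chosen after their values were seen.

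Genes whose products work with the members were compared through lists. Of 31 partners and regulators, such as the E proteins, Id proteins, Eya, Tle and Akt genes, 20 had a kept probe, of which 2 were higher and 3 lower (25%, against 31.3% of all genes; median -0.163). Eya1, a coactivator of Six-family proteins, fell at least 1.20-fold (-1.06, adjusted p = 0.000859), and Tle2, a corepressor used by many of these factors, fell by 1.01 on the log2 scale. Tle5, a short relative that opposes the other Tle proteins, was higher by 0.91, and Ldb1, the adaptor of LIM-homeodomain proteins, fell by 0.49.

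Of 47 other developmental factors that the naming rule leaves out, 18 were kept, with 2 higher and 11 lower (72.2% called, against 31.3%; median -0.816). Tfap2b, a factor of neural crest and ductus arteriosus, was lower (-3.69, adjusted p = 2.34e-05), as were Ebf1 (-2.28) and Ebf2 (at least 3.21-fold), factors of fat cell precursors, and Isl1, a second heart field factor (-3.53). On the same arrays, 2 of the 3 kept adipocyte markers, Pparg and Plin4, were lower, while Lep differed by 0.54 (adjusted p = 0.0789) and was not called. The list's sum, in which Plin4 weighs most, was 1210 to 1495 in the wild-type and 468.8 to 620 in the knockout. Of 9 adventitial fibroblast markers 5 were lower and 3 higher, with sums of 13060 to 13320 and 18540 to 21850. Dcn, the brightest gene of that list and 1 of the 3 higher (means 12.41 and 13.78), weighs most in these sums. Of all genes, 14.8% were higher and 16.5% lower. The part of the adipocyte and fibroblast markers in the result was not tested.

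**Figure D5:**
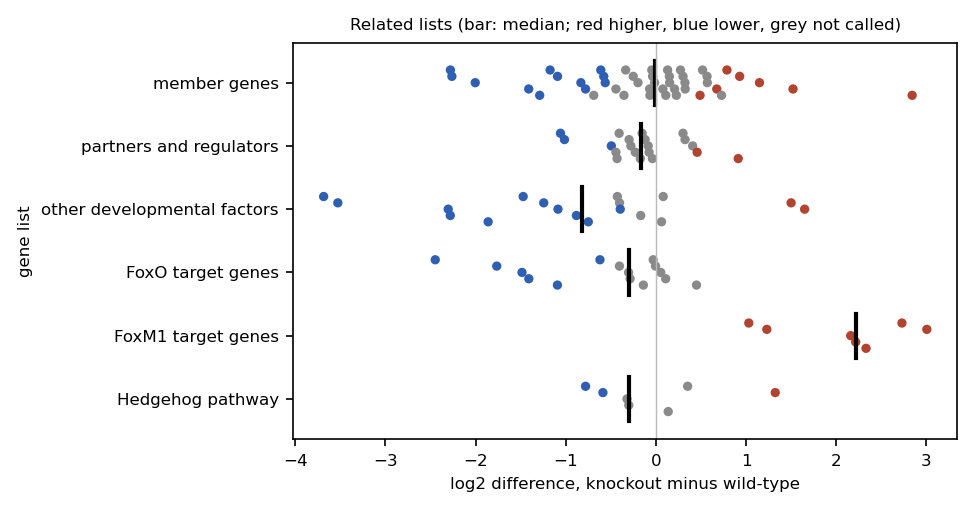
Log2 difference, knockout minus wild-type, of the member genes and of the genes in 5 related lists, each point 1 gene at its brightest kept probe and each bar the median of its list. Red and blue points were called higher and lower, and medians ran from -0.816 for other developmental factors to 2.216 for FoxM1 target genes.

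Among genes described as targets of FoxO factors, 15 of 19 were kept and 6 were lower, with none higher (40% called, against 31.3% of all genes, of which 16.5% were lower; median -0.304). Pdk4, which switches muscle to fat oxidation, fell 5.46-fold (-2.45), the growth arrest gene Gadd45a 3.4-fold (-1.77), the coactivator Cited2 2.8-fold (-1.49) and the thioredoxin inhibitor Txnip 2.66-fold (-1.41). Foxo1 itself was not called, and Foxo3 and Foxo4 had no kept probe. Of 15 FoxM1 target genes 7 were kept and all 7 were higher, against 14.8% of all genes (median 2.216), among them the mitotic kinase Plk1 (3.005), the anaphase activator Cdc20 (2.73), Birc5 (2.22) and the centromere histone Cenpa (2.16), with 2 of the 7 kept through the knockout arrays alone. Of 16 Hedgehog pathway genes, 7 were kept and 3 called (42.9%, against 31.3% of all genes): Gli2 was higher by 1.32, while Hhat (-0.78) and Gli3 (-0.59) were lower. No listed gene is a member.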

How the data were processed

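RNA of 3 wild-type and 3 FHL2-knockout cultures was measured on 1 array each, grouped by the genotype in the labels. The authors deposited summarized bead intensity values, not scaled between arrays, with a detection p-value per probe and array, per the file headers. A deposited matrix holds normalized log2 values of the same arrays, whose background correction and offset are unknown; column medians were 4.945 to 4.947, and each correlated at 0.999 with its array. Among tools, limma 3.10.2, R 2.14.0 and GenomeStudio 2011.1 appear in the submitters' processing notes, with no roles given.

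Normalization used neqc of limma 3.58.1, under R 4.3.3: normexp background correction from the detection p-values, an offset of 16, quantile normalization and log2. The offset shrinks differences of dim probes, and quantile normalization assumes like distributions in both genotypes. Probes with detection p under 0.05 on at least 3 arrays were kept. The lmFit and eBayes fit, knockout minus wild-type, was adjusted over all 15527 kept probes, and an adjusted p under 0.05 is a call. It was tested on simulated data. Errors of differences are moderated standard errors, and n = 3 arrays per genotype, which limits the precision.

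A gene is represented by its kept probe with the highest mean over all arrays. Every member gene with a kept probe is named. Values on every array are given for called genes with a log2 difference of at least 1 in size and groups that do not overlap, and for 10 others chosen after seeing values: Gata6, Meis1, Meis2, Foxo1, Foxk1, Foxc2, Foxp1, Tbx1, Twist1 and Twist2. Symbols came from the platform annotation, and updating them through a RefSeq table changed no member. Other lists are represented by up to 4 called genes of smallest p. The endothelial and mesothelial markers named for detection, the markers Lep, Dcn and Uty, and neighbouring genes were chosen after seeing values. The members and lists were chosen with earlier results of these data known. No slide or scan date was at hand, and an array batch that coincides with genotype cannot be told apart from it. Alternatives were median scaling, cyclic loess, an offset of 50, no background correction, other filters, the deposited matrix, eBayes with trend and robust, array weights, updated symbols, a replicate block and leaving out each array, and, for the gene counts, the mean of a gene's kept probes.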

Additional observations from a re-analysis of the deposited data

How the results depend on the processing

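Of the 19 member calls, 11 held under every alternative that could be computed for them. Gata6, Meis1, Meis2, Sox12 and Tbx6 lost their call under median scaling alone, and Foxp1, Sox21 and Tbx3 in 6, 6 and 5 alternatives. Median scaling called 685 probes higher and 1082 lower in all, and 4 member probes and 3 member genes higher. It lost 8 of the 19 member calls, among them the lower calls of Meis1, Meis2, Tbx3 and Tbx6. The median difference of all tested probes was -0.0738 under it, -0.001 in the main fit and between -0.0036 and 0.0115 in the other alternatives. Requiring detection on all 6 arrays left 5 member probes higher. It removed Foxa1, Pbx4, Sox21, Tbx18 and the second Gata6 probe, which were missed on wild-type arrays. On the lower side it removed Foxp2, Meox2 and Tbx3 and 1 called probe each of Irx2 and Sox5, which were missed on knockout arrays. Of the 19 called genes 12 remained, all still called. Foxc2 and Tbx1 (higher) and Prrx1 (lower), not called in the main fit, passed the threshold in this setting. Without background correction differences were smaller for dim genes, at 1.12 for Foxa1, -0.82 for Foxp2, -0.68 for Meox2 and 0.53 for Tbx18, each still called.

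Signs turned for uncalled genes only. Under median scaling Foxk2 was at -0.0018 and Twist1 at -0.033. With cyclic loess Pbx3 was at 0.060 and Tbx22 at 0.035. Leaving out 1 array gave -0.17 to 0.012 for Foxn3, -0.089 to 0.11 for Pbx3, -0.082 to 0.043 for Six5, -0.13 to 0.30 for Tbx15, -0.14 to 0.13 for Tbx22 and -0.063 to 0.18 for Twist1. The cause of these turns was not tested. Beside the genes named in the report, Prrx1 passed the threshold in 4 alternatives, with adjusted p from 0.0232 to 0.552. Leaving out each array in turn, with the normalized values of all 6, gave 5 to 8 member genes higher and 11 to 14 lower.

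Same-numbered arrays deviated together with correlations of 0.118, 0.0727 and 0.0641, and pairs with different numbers lay between -0.0741 and 0.00863. Each array thus correlated best with its own number. Whether the numbers pair the samples was not tested, and these values do not decide it. With the replicate number as a block, 2147 probes were higher and 2258 lower, and 8 member genes were higher and 12 lower, with Tbx1 added (adjusted p = 0.0495, within 0.0256 to 0.564 over its alternatives).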
